A study of Drosophila melanogaster with 12 samples.

Results

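Control larvae of Drosophila melanogaster were compared after 6 h on food with rapamycin and after 6 h on food with ethanol alone, on 6 of the 12 arrays of the series. The 3 rapamycin and the 3 ethanol arrays were chosen by their labels, with no use of measured values. Both groups are w1118 larvae, labelled female, synchronised, grown under controlled conditions and taken 48 h before wandering. The rapamycin food held 200 µM of the drug, and the ethanol food held the solvent at the matching concentration. Total RNA was extracted from larvae with Trizol, and 0.5 µg per sample was labelled with Cy3 and hybridised to a one-colour Agilent array. The other 6 arrays carry RNA of REPTOR knockout larvae on the same foods and entered the model only through the shared estimate of the spread. Per the series, replicate arrays are biological replicates, and the p-values measure the spread between these samples.

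TORC1 is a kinase complex that is active when amino acids and growth factors are plentiful. It promotes ribosome production, translation and lipid synthesis and holds back autophagy. Rapamycin, bound to an FKBP protein, inhibits TORC1, so feeding it to larvae imitates part of a nutrient shortage while food is still present. In Drosophila larvae TORC1 drives growth of the fat body, gut and other feeding tissues, and the RNA of whole larvae averages over all of them. In such bulk RNA, fewer cells of a type and less RNA per cell cannot be told apart.

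Each array carried 43602 spots other than controls, of which 72.5% to 82.7% were well above background and 0 were saturated. A level below is the log2 processed signal relative to the 75th percentile of the array, and a change is the level on rapamycin food minus that on ethanol food, with its standard error from limma. Of 25842 genes or target sequences on the array, 18765 were tested because every array of some group, of the 4 in the series, showed their probe well above background. Among the 18765, 916 were admitted by neither control group, and 46 of these passed, beside 43.1% of all targets tested. Only 275 of those tested matched a gene symbol, and 147 had a symbol that is more than a CG or CR number. A target was called where its adjusted p was under 0.05.

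Rapamycin array 3 stood apart from the other 5. Its levels correlated with those of rapamycin arrays 1 and 2 at r = 0.962 and 0.964, whereas arrays 1 and 2 correlated with each other at 0.993, as a description over targets. The dosage compensation RNA lncRNA:roX2, which is normally made in males, read -8.74, -8.68 and -1.29 on rapamycin arrays 1, 2 and 3, against -6.90, -8.97 and -7.27 on ethanol arrays 1, 2 and 3. Its partner lncRNA:roX1 read 0.17, 0.43 and 3.35 on the rapamycin arrays, against -0.17, -0.80 and -0.13 on the ethanol arrays. Array 3 was thus the high one for both roX RNAs among the 6 arrays labelled female, and neither RNA passed the test.

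The targets named after clones of the adult testis cDNA library moved with the roX RNAs. Over 67 such targets the median level was -4.83, -4.81 and -2.85 on rapamycin arrays 1, 2 and 3, against -4.89, -4.84 and -4.86 on the ethanol arrays. In all, 1010 targets read more than 1 log2 unit above the mean of the other rapamycin arrays on array 3, against 149 and 169 for arrays 1 and 2. Of these 1010, 22 were called, beside 43.1% of all targets. Nothing is read from this low count, because the 1010 were chosen for a wide spread among the rapamycin arrays. The median change of the 1010 was 0.82 with all arrays and -0.09 without array 3. Their part in the other results is given below by leaving array 3 out.

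A large share of what the array measured differed between the rapamycin and the ethanol arrays. Of the 18765 targets, 8082 (43.1%) passed, 3984 higher (21.2%) and 4098 lower (21.8%) on rapamycin food. The arrays of both groups were free of overlap for 57% of all tested targets and for 7962 of the 8082. Most changes were small: 3874 of the called targets changed at least 1.5-fold, 1590 at least 2-fold (8.47% of those tested), 233 at least 4-fold and 41 at least 8-fold. The median change was 0.55 among targets called higher, -0.59 among those called lower and 0.05 over all tested. At the other end, 1150 of the 10683 uncalled targets had a 95% interval inside 0.25 log2 units either side of 0.

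Most of the larger changes were also called on rapamycin arrays 1 and 2 alone. Without array 3, 6726 of the 8082 calls (83.2%) held in the same direction, with 0 turned in sign. Leaving out rapamycin array 1 or 2 in its place kept 6621 and 6580, also with 0 turned. The loss of calls was thus not particular to array 3. The share was 94.5% for the targets changed at least 2-fold (1502 of 1590), and 222 of the 233 changed at least 4-fold and 40 of the 41 changed at least 8-fold held. The 1356 calls that were lost had a median size of 0.35 log2 units with all arrays, and 186 targets were called only without array 3. Among the 147 genes with a symbol 70 (47.6%) were called, 33 higher (22.4%) and 37 lower (25.2%), and 60 of these 70 calls held.

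The 3 ethanol arrays and rapamycin array 1 share a slide, and rapamycin arrays 2 and 3 lie on another, which holds no ethanol array of control larvae. With slide as a block, the change is therefore that of rapamycin array 1 against the 3 ethanol arrays. It equals the change within the first slide (3.20 for Nepl4 in both), and rapamycin arrays 2 and 3 then inform only the spread. A model with slide as a block called 4683 targets and shared 4470 of these, direction included, with the 8082. Within the first slide 2799 were called and 2524 shared, under the assumption that its single rapamycin array varies as the other groups do. Centring each array on its median in place of its 75th percentile moved the median change of all targets to -0.14 and left 4057 calls, of which 25.5% were higher, against 49.3% in the main scaling. The split between rises and falls therefore depends on the scaling, and changes smaller than the shift between these medians can turn sign with it.

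**Figure D1:**
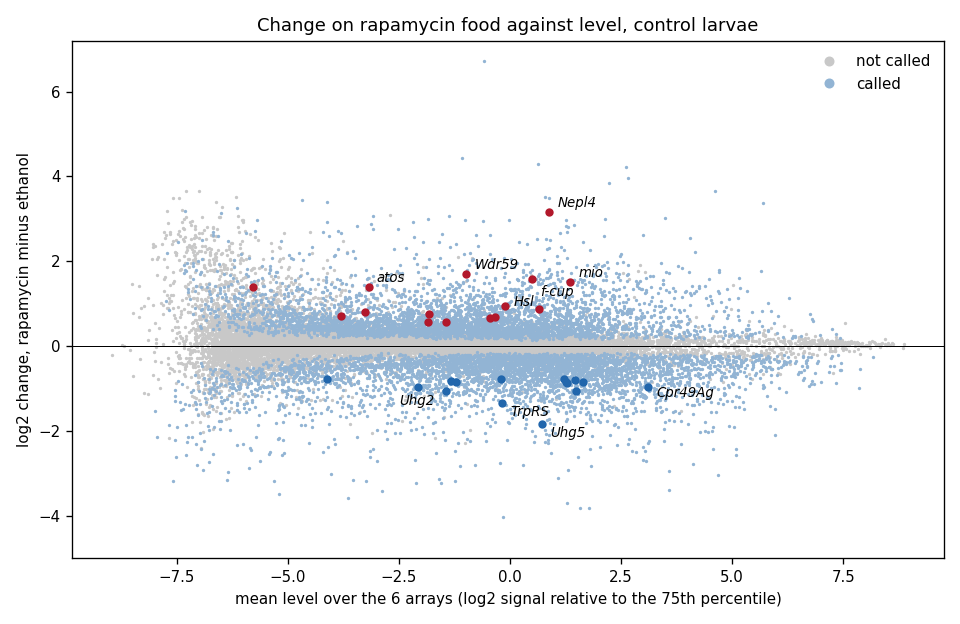
Change on rapamycin food (y axis, log2 rapamycin minus ethanol) of each of the 18765 targets against its mean level over the 6 arrays (x axis, log2 signal relative to the 75th percentile). Blue points are called and grey points are not, and the 15 highest and 15 lowest named genes are drawn large in red and dark blue. The changes of Nepl4 (3.16) and Uhg5 (-1.83) mark the ends of the named genes.

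The direction of the calls varied with the level of the target. Below a mean level of -6, 7% of the targets were called higher and 7.21% lower. Between -4 and -2, 26.6% were called higher and 15.1% lower, and above 2 the order was turned, with 17.7% higher and 39.5% lower. The median change was 0.14 below -6, 0.12 between -4 and -2 and -0.13 above 2. Without array 3 these medians were -0.07, 0.10 and -0.12, so that at the dim end the sign rests on array 3. Median centring shifts every target by the same amount, and put the last 2 medians at -0.07 and -0.32.

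**Figure D2:**
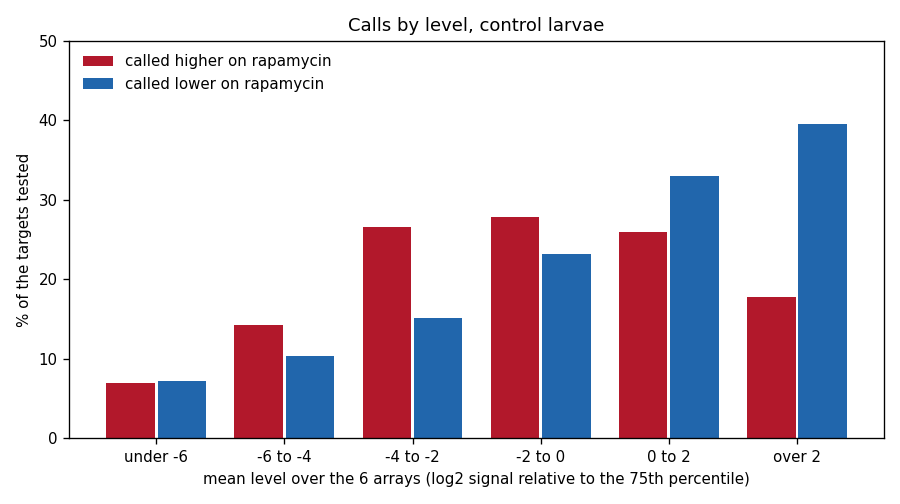
Share of the tested targets (y axis, percent) called higher (red) or lower (blue) on rapamycin food, in bins of the mean level over the 6 arrays (x axis, log2 signal relative to the 75th percentile). Calls in the higher direction are the more frequent between -6 and 0 (26.6% against 15.1% in the bin from -4 to -2), and calls in the lower direction above 0 (39.5% against 17.7% above 2).

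The regulators of TORC1 that were measured by symbol are subunits of GATOR2, a complex that relieves the GATOR1 block on TORC1 when amino acids are present. The gene mio read 2.11, 2.15 and 2.08 on the rapamycin arrays, against 0.65, 0.57 and 0.60 on the ethanol arrays, a change of 1.51 ± 0.06 (adjusted p = 2.63e-07). Wdr59 read -0.24, -0.12 and -0.02 on the rapamycin arrays, against -1.60, -1.98 and -1.93 on the ethanol arrays, a change of 1.71 ± 0.11 (adjusted p = 3.14e-06). The groups lay far apart, 2.84-fold in signal for mio and 3.26-fold for Wdr59, and array 3 was like the other rapamycin arrays. Wdr24, the other GATOR2 gene measured, was dim and its arrays overlapped, with a change of 0.12 ± 0.11 (adjusted p = 0.401) and a 95% interval of -0.12 to 0.37. Thus 2 of the 3 listed members rose, beside 21.2% of all targets. The gene lists were chosen with earlier results of these data known, so this share and those of the lists below are descriptions only.

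Nepl4, which encodes a protein of the neprilysin family of membrane peptidases, had the highest change of any gene with a symbol. It read 2.50, 2.43 and 2.43 on the rapamycin arrays, against -0.85, -0.70 and -0.55 on the ethanol arrays. That is an 8.91-fold higher signal on rapamycin food (3.16 ± 0.12 log2 units, adjusted p = 2.56e-07), with the gap between the groups many times the spread within either. The related Nepl7 had -0.22 ± 0.15 (adjusted p = 0.267), and its arrays overlapped. The change of Nepl4 lay between 3.08 and 3.23 when any single array was left out.

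The measured genes of lipid breakdown and of autophagy, 1 each, rose by smaller amounts. Hsl, which encodes hormone-sensitive lipase, an enzyme that breaks down stored lipid, read 0.35, 0.39 and 0.32 on the rapamycin arrays, against -0.48, -0.65 and -0.62 on the ethanol arrays. The change was 0.94 ± 0.08 (adjusted p = 1.87e-05), with no overlap between groups. Atg10, the single autophagy gene measured by symbol, read 1.15, 1.26 and 1.21 on rapamycin food, against 0.69, 0.73 and 0.71 on ethanol food, a change of 0.50 ± 0.06 (adjusted p = 9.6e-05). Its product is the E2-like enzyme that joins Atg12 to Atg5. Under median centring the Atg10 change was 0.31 (adjusted p = 0.275), and its second probe gave 0.15 in the main scaling.

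The lysosomal list held 1 gene in each direction. CtsB, encoding the protease cathepsin B, rose by 0.50 ± 0.14 (adjusted p = 0.0156), with 0.44 and an adjusted p of 0.181 when slide was a block. Vha13, a subunit of the vacuolar ATPase that acidifies lysosomes and gut lumen, fell by 0.65 ± 0.09 (adjusted p = 0.000332). It read 6.23, 6.21 and 6.06 on the rapamycin arrays and 6.67, 6.88 and 6.88 on the ethanol arrays. ATPCL, encoding the ATP citrate lyase that supplies acetyl-CoA for lipid synthesis, had 0.12 ± 0.18 (adjusted p = 0.632).

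**Figure D3:**
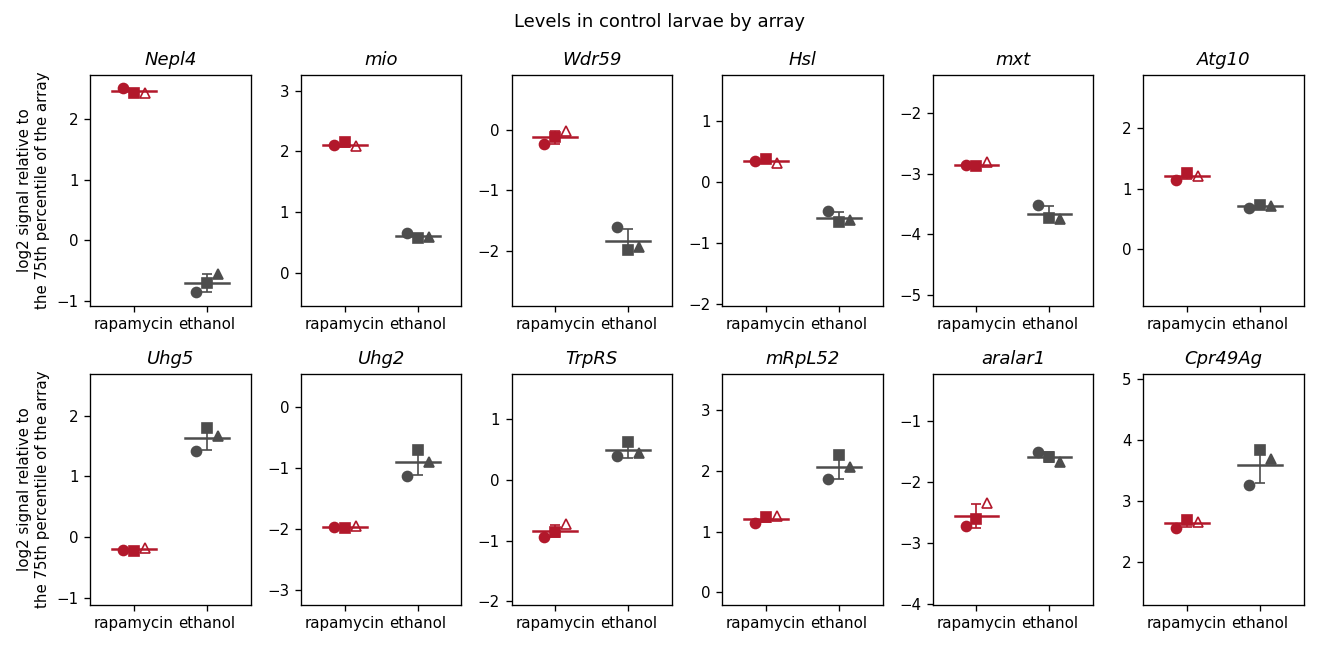
Levels (y axis, log2 signal relative to the 75th percentile of the array) of 12 genes on each rapamycin array (red, left) and ethanol array (grey, right) of control larvae. Circles, squares and triangles are replicates 1, 2 and 3, the open triangle is rapamycin array 3, and lines and bars are the mean and SD of 3 arrays. In each panel the groups are free of overlap, as for Nepl4 with 2.43 to 2.50 on rapamycin food and -0.85 to -0.55 on ethanol food.

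Host genes of small nucleolar RNAs gave some of the strongest falls among named genes. The introns of these genes carry snoRNAs, which guide the modification of ribosomal RNA. Uhg5 read -0.21, -0.22 and -0.17 on the rapamycin arrays, against 1.43, 1.81 and 1.66 on the ethanol arrays, and fell by 1.83 ± 0.13 (adjusted p = 5.28e-06), a 3.56-fold lower signal. Uhg2 read -1.98, -1.99 and -1.95 on rapamycin food, against -1.12, -0.70 and -0.89 on ethanol food, and fell by 1.07 ± 0.12 (adjusted p = 0.000109). Uhg3 fell by 0.77 ± 0.15 (adjusted p = 0.00214), though with slide as a block it had -0.68 and an adjusted p of 0.0529. All 3 measured host genes were lower, beside 21.8% of all targets, and the rapamycin arrays of each lay closer together than its ethanol arrays. The share of targets called lower was 23.2% between mean levels of -2 and 0 and 33% between 0 and 2.

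Of 5 snoRNA or scaRNA genes, snoRNA:Psi28S-291 fell by 0.41 ± 0.14 (adjusted p = 0.0367), a call that was lost both without rapamycin array 3 (adjusted p = 0.109) and with slide as a block (adjusted p = 0.233). The other 4 did not pass. Among them the U3 genes snoRNA:U3:9B and snoRNA:U3:54Aa, whose product is needed to cleave the ribosomal RNA precursor, had 0.12 ± 0.10 and 0.09 ± 0.13.

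The 2 genes measured from the lists of aminoacyl-tRNA synthetases and ribosome biogenesis were lower. TrpRS, the tryptophanyl-tRNA synthetase gene, read -0.94, -0.86 and -0.73 on the rapamycin arrays, against 0.40, 0.63 and 0.44 on the ethanol arrays, and fell by 1.33 ± 0.11 (adjusted p = 1.13e-05). Rrp42, a subunit of the RNA exosome that trims ribosomal RNA, fell by 0.52 ± 0.12 (adjusted p = 0.00527), or 0.51 with an adjusted p of 0.0822 with slide as a block. In contrast, mxt, which encodes an eIF4E-binding protein with a part in translation, rose by 0.81 ± 0.08 (adjusted p = 3.99e-05) from dim levels. It read -2.86, -2.88 and -2.81 on rapamycin food, against -3.51, -3.72 and -3.74 on ethanol food. The mxt change was -0.05 under normexp background correction fitted on all spots, where ethanol array 2 carries a single spot with a very high background.

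All 3 mitochondrial ribosomal protein genes with a symbol fell by almost the same amount. Of all targets 21.8% fell, and of those with a mean level between 0 and 2, 33%. On the rapamycin arrays mRpL52 read 1.15, 1.24 and 1.25, against 1.87, 2.26 and 2.06 on the ethanol arrays. Its change was -0.85 ± 0.14 (adjusted p = 0.000913), beside -0.87 ± 0.16 for mRpS16 and -0.84 ± 0.16 for mRpL14. With slide as a block, which rests on rapamycin array 1, the changes were -0.92, -0.96 and -0.94 for mRpL52, mRpS16 and mRpL14.

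The 4 cytosolic ribosomal protein genes with a symbol did not move together. RpL30 read 1.04, 1.10 and 1.10 on the rapamycin arrays, against -0.02, 0.35 and 0.29 on the ethanol arrays, and rose by 0.87 ± 0.16 (adjusted p = 0.00159). Its change was 0.68 under median centring, with an adjusted p of 0.0557. RpS7 read -4.75, -4.40 and -4.36 on rapamycin food, against -3.77, -3.68 and -3.75 on ethanol food, and fell by 0.77 ± 0.11 (adjusted p = 0.000337). Its probe was dim beside that of RpS14b, which read 3.77, 3.80 and 3.95 on the ethanol arrays. Whether the dim probe reports the main RpS7 transcript was not tested. RpS14b, whose neighbour RpS14a is nearly identical, rose by 0.23 ± 0.06 (adjusted p = 0.0169). Median centring left 0.04 for RpS14b, and slide as a block gave an adjusted p of 0.243. RpS29 had -0.55 ± 0.25 (adjusted p = 0.101).

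Genes of mitochondrial energy metabolism were lower as well. The list of the respiratory chain, citrate cycle and carriers also held FeCH, a gene of haem synthesis. Of the 6 listed genes tested, 5 fell and 0 rose, beside 21.8% of all targets that fell. That share was larger among bright targets, 33% between mean levels of 0 and 2 and 39.5% above 2. The median change of the 6 genes was -0.34, against 0.05 over all targets. The aspartate-glutamate carrier gene aralar1 read -2.73, -2.61 and -2.34 on the rapamycin arrays, against -1.50, -1.59 and -1.67 on the ethanol arrays, and fell by 0.97 ± 0.14 (adjusted p = 0.000444). FeCH, encoding the ferrochelatase of haem synthesis, fell by 0.41 ± 0.06 (adjusted p = 0.000577). The complex I subunit genes fell less, ND-B17.2 by 0.36 ± 0.08, ND-B17 by 0.32 ± 0.07 and ND-B14.7 by 0.20 ± 0.07. The ND-B14.7 call (adjusted p = 0.0414) did not hold without array 3 or with slide as a block, and ATPsynG, an ATP synthase subunit gene, had -0.18 ± 0.07 (adjusted p = 0.0624). Ald1, the glycolytic aldolase, fell by 0.83 ± 0.12 (adjusted p = 0.000447).

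Cuticle and chitin genes gave 3 falls and 0 rises among 5, with a median change of -0.63. Of all targets 21.8% fell, and of those with a mean level above 2, 39.5%. Cpr49Ag, a structural cuticle protein gene, read 2.56, 2.69 and 2.65 on the rapamycin arrays, against 3.26, 3.83 and 3.70 on the ethanol arrays, and fell by 0.96 ± 0.13 (adjusted p = 0.000332). Another cuticle protein gene, Cpr60D, fell by 0.48 ± 0.10 (adjusted p = 0.00283). The chitin deacetylase gene verm fell by 0.75 ± 0.17 (adjusted p = 0.00652), with an adjusted p of 0.0958 with slide as a block. The chitin-binding protein gene obst-B was bright on all arrays, between 4.05 and 4.08 on rapamycin food and between 3.93 and 4.07 on ethanol food, and had 0.07 ± 0.09. Acp65Aa had -0.63 ± 0.32 (adjusted p = 0.149), with overlapping arrays.

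**Figure D4:**
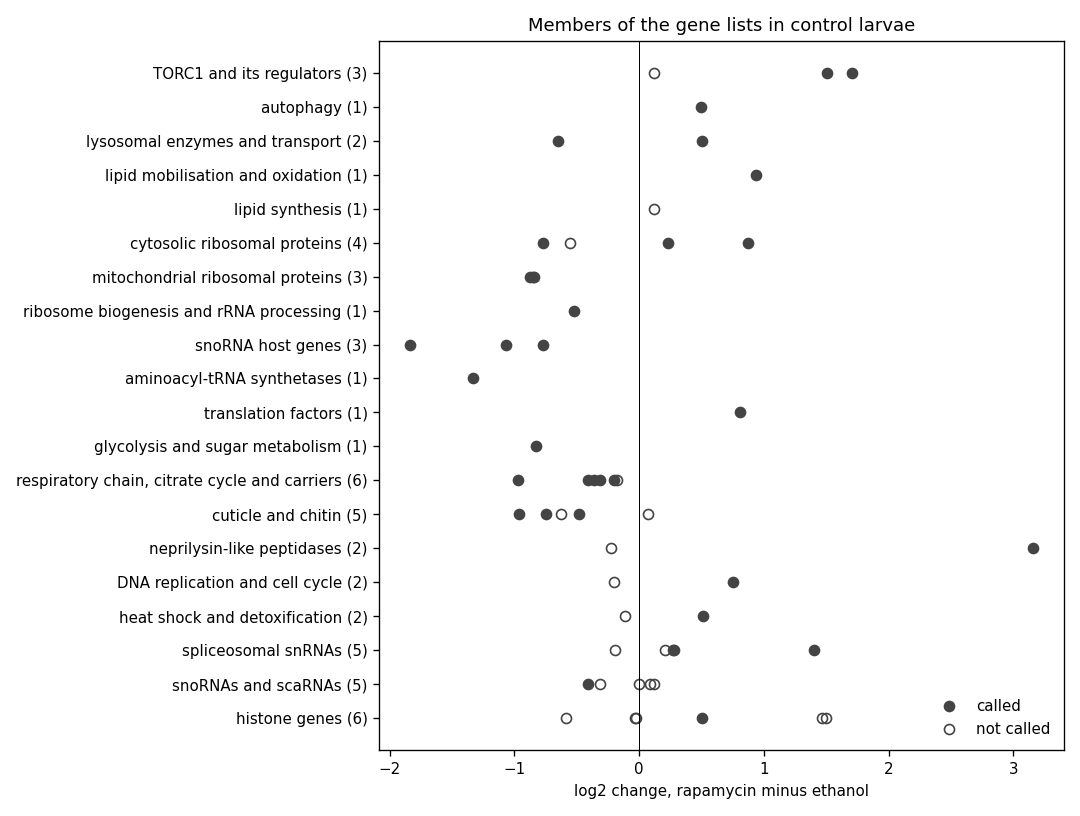
Change on rapamycin food (x axis, log2 rapamycin minus ethanol) of each tested member of 20 gene lists (rows, with the number of members). Filled points are called and open points are not. The 3 snoRNA host genes and 3 mitochondrial ribosomal protein genes all lie left of 0 and are filled, whereas the 4 cytosolic ribosomal protein genes lie on both sides, between -0.77 and 0.87.

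Several named genes lay outside the growth and metabolism lists. The gene f-cup, known for transcription late in male germ cells of the testis, read 1.23, 1.29 and 1.35 on the rapamycin arrays, against -0.29, -0.30 and -0.29 on the ethanol arrays. Its rise of 1.58 ± 0.07 (adjusted p = 4.47e-07) was 1.55 without rapamycin array 3, and array 3, the high array for the roX RNAs, read like arrays 1 and 2. The gene atos, encoding a transcriptional regulator, rose by 1.38 ± 0.11 (adjusted p = 1.1e-05). Its 3 probes gave 1.38, 1.47 and 0.71, and it had 0.34 (adjusted p = 0.503) under normexp fitted on all spots.

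The 15 highest further held caps, a leucine-rich repeat cell-surface protein gene (0.68 ± 0.06), kek1, an inhibitor of the EGF receptor (0.65 ± 0.14), Trpm, a cation channel gene (0.57 ± 0.08), and hiw, an E3 ubiquitin ligase of synapses (0.57 ± 0.16). Under median centring these calls did not hold, with changes from 0.38 for Trpm to 0.49 for caps. With slide as a block kek1 had 0.62 (adjusted p = 0.0572) and hiw 0.52 (adjusted p = 0.15). Gen, an endonuclease gene of DNA repair, rose by 0.75 ± 0.16 (adjusted p = 0.00464), but within the slide that holds both foods it had 0.48 (adjusted p = 0.309). The transcription factor gene cnc, a regulator of detoxification, rose by 0.51 ± 0.08 (adjusted p = 0.000981) and had 0.32 (adjusted p = 0.300) under median centring.

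Among the remaining falls, shop, the sulfite oxidase gene, read 1.02, 0.90 and 0.94 on the rapamycin arrays, against 2.27, 1.79 and 1.99 on the ethanol arrays, a change of -1.06 ± 0.16 (adjusted p = 0.000629). Cyp1, a cyclophilin gene, fell by 0.85 ± 0.12, and its 3 probes gave -0.85, -0.95 and -0.99. Chpf, encoding a chondroitin polymerising factor, fell by 0.78 ± 0.09 (adjusted p = 0.000146). LysE, a lysozyme gene with nearly identical relatives in its cluster that a probe may not tell apart, fell by 0.80 ± 0.25 (adjusted p = 0.0287). The LysE call did not hold without rapamycin array 3 (adjusted p = 0.0675) or with slide as a block (adjusted p = 0.0646).

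Long noncoding and antisense RNAs made up the longest lists. Of 50 tested RNAs on the long noncoding list, which leaves out the roX RNAs, the snoRNA host genes and 2 Su(Ste) transcripts, 14 rose and 4 fell, beside 21.2% and 21.8% of all targets. Their median change was 0.28, or 0.11 without rapamycin array 3 and 0.09 under median centring. lncRNA:CR42862, well above background throughout, read 6.58, 6.56 and 6.49 on the rapamycin arrays, against 4.80, 4.66 and 4.86 on the ethanol arrays. It rose by 1.77 ± 0.08 (adjusted p = 5.11e-07), and its 5 probes gave between 1.56 and 1.98. The highest change was that of lncRNA:CR43301, with levels of -1.76, -1.60 and -1.69 on rapamycin food, against -4.51, -4.59 and -4.55 on ethanol food, or 7.30-fold (2.87 ± 0.22, adjusted p = 8.39e-06). It had 2.08 with normexp fitted without outlier spots and 1.31 with all spots, where the call was lost (adjusted p = 0.0875). The heat shock RNA lncRNA:Hsromega had -0.07 ± 0.18 (adjusted p = 0.779). These and the following numbered RNAs were picked out after their values were seen.

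Antisense RNAs gave 5 rises and 5 falls among 35, or 14.3% each way beside 21.2% and 21.8% of all targets, with a median change of 0.11 that was -0.07 under median centring. The fall of asRNA:CR43767 was the largest of these 5, with -4.73, -4.54 and -4.66 on the rapamycin arrays, against -3.09, -3.01 and -2.89 on the ethanol arrays (-1.65 ± 0.07, adjusted p = 5.21e-07). In the other direction asRNA:CR43464 was well above background on all 3 rapamycin arrays and on 0 ethanol arrays. Its signal was at least 1.88-fold higher on rapamycin food (adjusted p = 0.000969), but it had 0.35 under normexp fitted without outlier spots and -0.67 with all spots. The function of these RNAs is not given in the sources used here.

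Of 5 spliceosomal RNAs 2 rose, and of 6 histone genes 1 did, beside 21.2% of all targets. snRNA:U11, which belongs to the minor spliceosome, read -5.30, -4.92 and -5.03 on the rapamycin arrays, against -6.09, -6.33 and -7.03 on the ethanol arrays, where it was well above background on 2 of 3. It rose by 1.40 ± 0.27 (adjusted p = 0.00217), with 1.18 and an adjusted p of 0.0549 with slide as a block and -0.44 under normexp fitted on all spots. With outlier spots left out of the normexp fit snRNA:U11 had 0.51. The other that rose, snRNA:U1:21D, one of several nearly identical U1 genes, had 0.28 ± 0.09 (adjusted p = 0.0292), a call lost with slide as a block (adjusted p = 0.112) and under median centring (adjusted p = 0.789). A further RNA, snRNA:U12, also of the minor spliceosome, had -0.19 ± 0.11 (adjusted p = 0.184). The histone gene that passed was the replacement histone gene His3.3B (0.50 ± 0.14, adjusted p = 0.0142), a call lost with slide as a block (adjusted p = 0.149). Replication-linked histone genes are multicopy, so their probes report families.

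**Figure D5:**
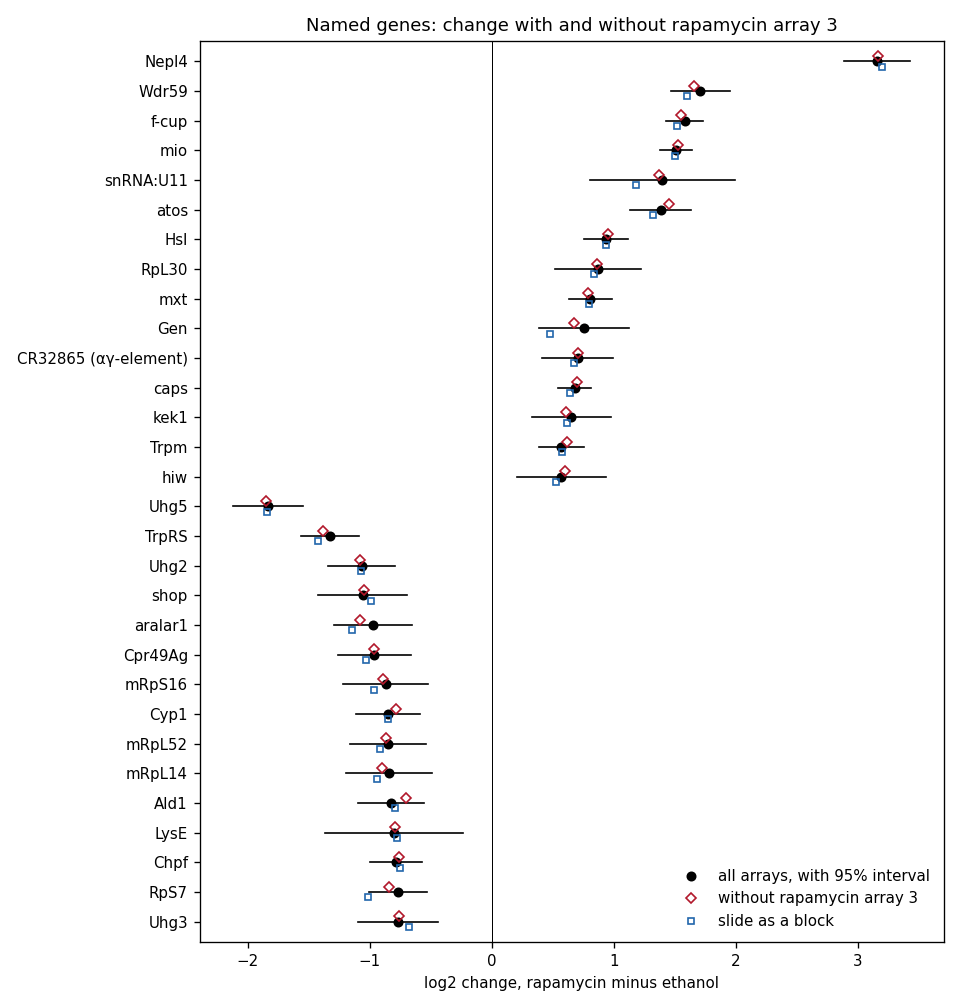
Change on rapamycin food (x axis, log2 rapamycin minus ethanol) of the 15 highest and 15 lowest named genes (rows), from all arrays (black, with 95% interval), without rapamycin array 3 (red diamonds) and with slide as a block (blue squares). The squares set rapamycin array 1 alone against the 3 ethanol arrays. The diamonds lie close to the black points, as for Nepl4 with 3.17 against 3.16, and the widest shifts of the squares are those of Gen (0.48 against 0.75) and RpS7 (-1.01 against -0.77).

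The extremes of the response carry only transcript identifiers. The highest change of all targets was that of FBtr0087746, which read 2.75, 2.88 and 2.69 on the rapamycin arrays, against -4.69, -5.24 and -1.95 on the ethanol arrays (6.73 ± 1.14, adjusted p = 0.00107). Its rapamycin arrays were close together and its ethanol arrays spread over several log2 units, so its 95% interval ran from 4.19 to 9.27. Without ethanol array 3 it had 7.73, and without ethanol array 2 6.09. FBtr0085307 rose by 4.44 ± 0.62 and FBtr0084864 by 4.29 ± 0.69. FBtr0084864 had ethanol levels of 0.06, -2.27 and -2.36, and its change was 5.08 without ethanol array 1. Under normexp fitted on all spots the changes were 4.90 for FBtr0087746, 3.24 for FBtr0085307 and 3.63 for FBtr0084864, each still called. The strongest falls were those of FBtr0087117 (-4.02 ± 0.51, or -3.41 with slide as a block), FBtr0078507 (-3.82 ± 0.29) and FBtr0077239 (-3.81 ± 0.33). FBtr0078507 read 0.10, -0.31 and -0.23 on rapamycin food, against 3.29, 3.94 and 3.81 on ethanol food.

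Some targets crossed the detection limit between foods. On 79 targets the probe was well above background on all 3 rapamycin arrays and on 0 ethanol arrays. On 66 it was the reverse. For the 79 the bound on the fold ranged from 1.20 to 5.71 with a median of 2.01, and for the 66 from 1.04 to 6.10 with a median of 1.66 in the lower direction. Of the 79, 51 were called and of the 66, 50, beside 43.1% of all targets, from which nothing is read because the targets were chosen by their detection in these groups. Without rapamycin array 3, 43 of the 51 and 39 of the 50 calls held.

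The 5 uncalled genes with the highest levels among those with narrow intervals around 0 are given next. CHKov1, a choline kinase-like gene, read 3.81, 3.93 and 3.80 on the rapamycin arrays, against 3.82, 3.79 and 3.72 on the ethanol arrays, a difference of 0.07 ± 0.06 with a 95% interval of -0.06 to 0.20. It was called higher after quantile normalisation (0.24, adjusted p = 0.0144) and on the deposited value table (0.24, adjusted p = 0.0136). The ubiquitin-activating enzyme gene Uba1 had -0.03 ± 0.07 by its brightest probe and -0.41 by its other probe. The other 3 were ckn (0.02 ± 0.08), Rae1 (-0.07 ± 0.07) and fs(1)K10 (-0.07 ± 0.07). Their differences were smaller than the shift of all targets between scalings.

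Where several probes measured the same target, they mostly gave the same direction. Of 3572 targets with at least 2 probes well above background on all 6 arrays, 1754 were called, beside 43.1% of all targets tested. In 1655 of these (94.4%) all probes had the same sign, as in 287 of the 292 that changed at least 2-fold. The call rests on the brightest probe, which is as a rule among those counted, and agreement among uncalled targets was not counted.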

How the data were processed

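The authors' spot intensity values came from Agilent Feature Extraction, version 10.7 according to the submitters' processing notes, and the background-corrected processed signal was used, per the file headers. The deposited value table holds further intensity values made by a step not given in the sources used here. Compared with the scanner files, its values tracked the median signal on a linear scale without background subtraction, with column medians of 144 to 157, and it served as an alternative. Spots of 1 probe were averaged without control and outlier spots, and the 75th percentile of each array was subtracted on the log2 scale.

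Of 32162 probes, 491 matched 1 symbol in the RefSeq gene table, 3 several and 31668 none. The probe with the highest mean stood for a target. No promoter, protein or probe sequences were used here.

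The contrast was fitted with limma 3.58.1 (R 4.3.3) to 4 groups and 12 arrays with 8 residual degrees of freedom, with two-sided p-values and Benjamini-Hochberg adjustment over all 18765 targets. For 3 arrays against 3 the smallest exact p is 0.1. The number of arrays limits the precision. For 16 targets with a missing value the fit used the remaining arrays. The fit was tested on simulated data. A bound sets the brighter group's mean against the detection floor of the dim group's arrays, or against the dim probe itself where that is higher.

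Members and gene lists were chosen with earlier results of these data known. Of 26 lists, 22 had a tested member, 140 genes in all. Of 9 marker lists, those for male dosage compensation and testis had a member, and those for fat body, midgut, muscle and other tissues had none, so tissue makeup was not checked. Named genes were, among called genes with a symbol and with arrays free of overlap, the 15 highest and 15 lowest changes. They further included the 3 highest and 3 lowest changes of all targets, the 5 brightest uncalled genes with an interval inside 0.25 log2 units either side of 0, and list members. Replicate numbers were not used to pair the arrays in the main model. The correlation of same-numbered deviations was 0.0376, 0.0465 and 0.0233. It cannot exclude pairing, because arrays with different numbers were not compared. Alternatives were other scalings and background corrections, other filters and probe choices, slide, roX2 level or replicate number as a term, other variance models and leaving out each array. The files hold a median and no mean spot signal, so normexp used the median.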

Additional observations from a re-analysis of the deposited data

Results flagged for a closer look

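For 30 of the named genes, list members and extreme targets the rapamycin effect differed between REPTOR knockout and control larvae. The test was the interaction of genotype and food in the limma model, with Benjamini-Hochberg adjustment over all targets (n = 3 arrays per group). Differences are knockout minus control, and no explanation was tested. Many of these targets were named for extreme changes in control larvae, and that same change enters the difference. Choosing targets in this way favours differences opposite in sign to the control change. The share of all targets that passed the interaction test is not given here. Knockout rapamycin arrays 1 and 2 also had a raised male signal: lncRNA:roX2 read 0.0079, -1.10 and -5.83 on the 3 knockout rapamycin arrays, against -9.06, -7.52 and -8.81 on the knockout ethanol arrays. Without these arrays and control rapamycin array 3, an alternative chosen after seeing the data, all 30 differences kept their sign and 14 passed. The knockout rapamycin group then rests on 1 array, assumed to vary like the other groups. All knockout rapamycin arrays lie on a slide that holds no control array, so slide and this difference cannot be told apart.

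Among genes that rose in control larvae, the difference was -2.76 ± 0.17 for Nepl4 (0.40 in knockout and 3.16 in control larvae, adjusted p = 2.47e-05) and -1.52 ± 0.08 for mio (-0.01 in knockout and 1.51 in control larvae, adjusted p = 1.24e-05). It was -1.34 ± 0.15 for Wdr59 (adjusted p = 0.000538) and -1.34 ± 0.10 for f-cup (adjusted p = 5.61e-05). The lipase gene Hsl had a difference of -0.95 ± 0.11 (-0.02 in knockout and 0.94 in control larvae, adjusted p = 0.000701). The translation gene mxt had -0.78 ± 0.11, atos -0.89 ± 0.16 and caps -0.56 ± 0.08. These 8 passed without the arrays of raised roX2 as well, as did lncRNA:CR43301 (-1.54 ± 0.31), lncRNA:CR42862 (-1.06 ± 0.11) and lncRNA:CR43334 (-0.69 ± 0.12). The differences of kek1 (-0.83 ± 0.20), snRNA:U11 (-1.29 ± 0.38), lncRNA:alphagamma-element:CR32865 (-0.88 ± 0.18), lncRNA:CR42549 (-0.51 ± 0.10) and lncRNA:CR43241 (-0.60 ± 0.11) did not pass without them.

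Among genes that fell in control larvae, Chpf had a difference of 0.50 ± 0.13 (adjusted p = 0.034), asRNA:CR43767 had 0.96 ± 0.10 (adjusted p = 0.0004) and asRNA:CR44054 had 0.98 ± 0.19 (adjusted p = 0.00877), and these 3 passed without the arrays of raised roX2. Those that did not were TrpRS (0.69 ± 0.15, with -0.64 in knockout and -1.33 in control larvae), Cpr49Ag (1.05 ± 0.19, with 0.09 in knockout and -0.96 in control larvae), Cpr60D (0.51 ± 0.14), aralar1 (0.73 ± 0.20), FeCH (0.31 ± 0.09) and asRNA:CR43470 (0.96 ± 0.22). For asRNA:CR44069 and asRNA:CR44029, neither of which was called in control larvae, the differences were 1.15 ± 0.26 and 1.72 ± 0.47, and they too did not pass without those arrays. Of the targets without a symbol, FBtr0087746 had -8.01 ± 1.61 (-1.28 in knockout and 6.73 in control larvae), FBtr0085307 -3.50 ± 0.88 and FBtr0077239 2.42 ± 0.46 (-1.39 in knockout and -3.81 in control larvae), and none of the 3 passed without those arrays (adjusted p = 0.108, 0.241 and 0.0767). The interaction did not pass for Uhg5 (0.60 ± 0.18, adjusted p = 0.0536) or Uhg2 (0.24 ± 0.17, adjusted p = 0.418), which does not show that these effects were alike.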

How the results depend on the processing

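The count of 8082 calls became 4057 with median centring, 4683 with slide as a block, 2799 within the first slide and 1590 when a 2-fold change was also required. It was 3378 with normexp fitted on all spots, where 1 spot of ethanol array 2 had a background far above its signal, and 7634 with the model fitted without outlier spots, an alternative chosen after seeing the data. Leaving out a single array gave between 6562 and 7551 calls, and the replicate block gave 7305. The remaining alternatives gave between 5443 and 9905.

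Over 161 named genes and list members and 24 alternatives, 3443 of 3843 values kept their side of the threshold (194 of these turned in sign while uncalled). A further 320 lost a call, 66 gained 1 and 14 reversed, meaning that the call was lost and the sign turned. All 14 reversed under normexp fitted on all spots, to -0.67 for asRNA:CR43464, -0.27 for asRNA:CR43257, -0.44 for snRNA:U11, -0.053 for mxt, -0.30 for lncRNA:alphagamma-element:CR32865, -0.22 for asRNA:CR43944, -0.30 for lncRNA:CR43126, -0.17 for asRNA:CR43465, -0.31 for cnc, -0.040 for His3.3B, -0.66 for lncRNA:CR43242, -0.28 for asRNA:CR44031, -0.68 for lncRNA:CR43943 and -0.35 for lncRNA:CR42646. None of the 14 was called in the new direction. That setting moved the median change of all targets to -0.34 and turned the sign of 1284 of the 8082 calls. The cause for each gene was not tested. Of 78 called genes, 28 were no longer called with median centring, 24 with slide as a block, 51 within the first slide and 6 without rapamycin array 3. The call held for 19 of the 78 in every alternative other than the 2 stricter thresholds.

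Slide and food are largely confounded, since no ethanol array of control larvae lies with rapamycin arrays 2 and 3. Below a mean level of -6, 14.2% of targets were called, against 58.9% between 0 and 2, and the median standard error was 0.38 below -6 and 0.09 between 0 and 2.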

Other observations

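Called genes with a symbol outside the lists and the rule for named genes were picked out here after their values were seen. Fdx1, a mitochondrial ferredoxin gene, fell by 0.71 ± 0.11 (limma adjusted p = 0.000564), and Fatp3, a fatty acid transport protein gene, by 0.65 ± 0.19 (adjusted p = 0.0191). CrebA, a transcription factor of the secretory pathway, fell by 0.67 ± 0.07 (adjusted p = 7.17e-05). The RNA of the signal recognition particle, 7SLRNA:CR32864, and that of RNase MRP, RNaseMRP:RNA, which cleaves the ribosomal RNA precursor, fell by 0.40 ± 0.08 and 0.41 ± 0.11 (adjusted p = 0.00279 and 0.0154), and neither call held with slide as a block (adjusted p = 0.0788 and 0.116). Among the rises were spen (0.49 ± 0.06), a nuclear RNA-binding protein gene, and sei (0.51 ± 0.09), a potassium channel gene, neither of which was called under median centring.

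The called targets named after GH clones, from an adult head library, went mostly in the higher direction. Of these, 47 (43.9%) were called higher and 12 (11.2%) lower, beside 21.2% and 21.8% of all targets, with a median change of 0.26. The median was 0.27 without rapamycin array 3 and 0.07 under median centring. Such an excess was not particular to this library. Clones with names beginning SD had 34% higher and 15.1% lower, IP clones 28.6% and 11.4%, and LD clones 27.5% and 12.5%. The order was turned for LP clones (20% and 32%) and RE clones (18.8% and 20.8%). There was no excess either way for RH clones (17.4% each way) or HL clones (21.4% each way).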
